A study of Mus musculus with 12 samples.

Results

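Thymic stromal lymphopoietin (TSLP, 1 µg/mL), an epithelial cytokine, was given for 7 days to cultured marrow from C57BL/6J wild-type mice to elicit bone marrow-derived basophils (BMBAs). The BMBAs were then sorted by surface staining. FcεRIαhi CD49blo cells are the immature group, the pre-basophils of the study, while the mature group stained FcεRIαlo CD49bhi. The comparison asked which transcripts separate these 2 stages when TSLP rather than interleukin-3 (IL-3) drives the culture. Its members were chosen by label, as the 3 TSLP immature and the 3 TSLP mature libraries among 12 libraries in the series. The other 6 libraries, from both stages of BMBAs grown with 0.3 ng/mL IL-3, entered the same fit and served to ask where the 2 cultures differ. Per the methods of the study, the cells were gated as positive for CD200R3, a basophil surface receptor, and each group had 3 libraries. The supplement of the study counts these as 3 cultures per group, and whether both stages with the same number came from the same culture is not stated. The protocol label gives the TSLP dose as above, whereas the treatment label writes it in mg/mL.

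Basophils are rare granulocytes that store histamine and serine proteases, carry the high-affinity receptor for IgE, and release type 2 cytokines. They leave the bone marrow as cells that no longer divide, so their last divisions and the filling of their granules take place in precursors. TSLP acts through a receptor made of the TSLP receptor chain (Crlf2) and the IL-7 receptor α chain (Il7r) and signals through JAK kinases and STAT5, whereas IL-3 acts through its own α chain (Il3ra) and the common β chain (Csf2rb) onto the same STAT factor.

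Total counts ran from 2659907 to 3685285 in the 6 TSLP libraries, and 14748 to 16256 genes had at least 1 count. Ribosomal RNA took 31.5% to 40.1% of the counts in 5 of them and 17.3% in TSLP mature 1. Markers of other lineages set TSLP mature 1 apart from its replicates. Summed over 18 B lineage genes in the table, its level was 261 CPM (counts scaled to a common library size, after TMM scaling), against 61.8 and 56.9 in TSLP mature 2 and 3 and 64.5 to 78.6 in the immature libraries. The neutrophil list summed to 1717 CPM in TSLP mature 1, to 777 and 750 in TSLP mature 2 and 3, and to 360 to 401 in immature libraries, and 1 of its 18 members (Stfa2l1) was at 0 in all 6. Cxcr2, which also stands in the trafficking list, made up most of that sum in every library except TSLP mature 1. It had 2263 and 2052 counts in TSLP mature 2 and 3 and 587 to 755 in immature libraries. For the monocyte and macrophage list the sums were 1977, then 1035 and 962, and 517 to 626 CPM. The study gates BMBAs as c-Kit-negative, and among the mast cell markers Mcpt1, Mcpt2, Mcpt9, Tpsb2 and Mrgprb2 had no count in any of the 6 libraries and Kit had at most 1 in each. Cpa3, which mast cells and basophils share, made up nearly all of that list's sum of 657 to 1685 CPM. The 10 genes of the T and NK list that the table held summed to 1.36 to 16.7 CPM and none was tested. An immature library also stood apart from its replicates, in the erythroid and platelet list. That list summed to 42.7 CPM in TSLP immature 1 and 61.0 CPM in TSLP mature 1, against 4.69 to 8.31 CPM in the other TSLP libraries. Among the named genes, the calls of Rfc2, Cdkn1a, Stat5a, Ltf, Ngp, S100a9, S100a8 and Apoe were lost without TSLP mature 1. Those of Fcer1a and Myc were gained. Where the stage calls of a list are counted, the counts are given with and without that library.

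**Figure D1:**
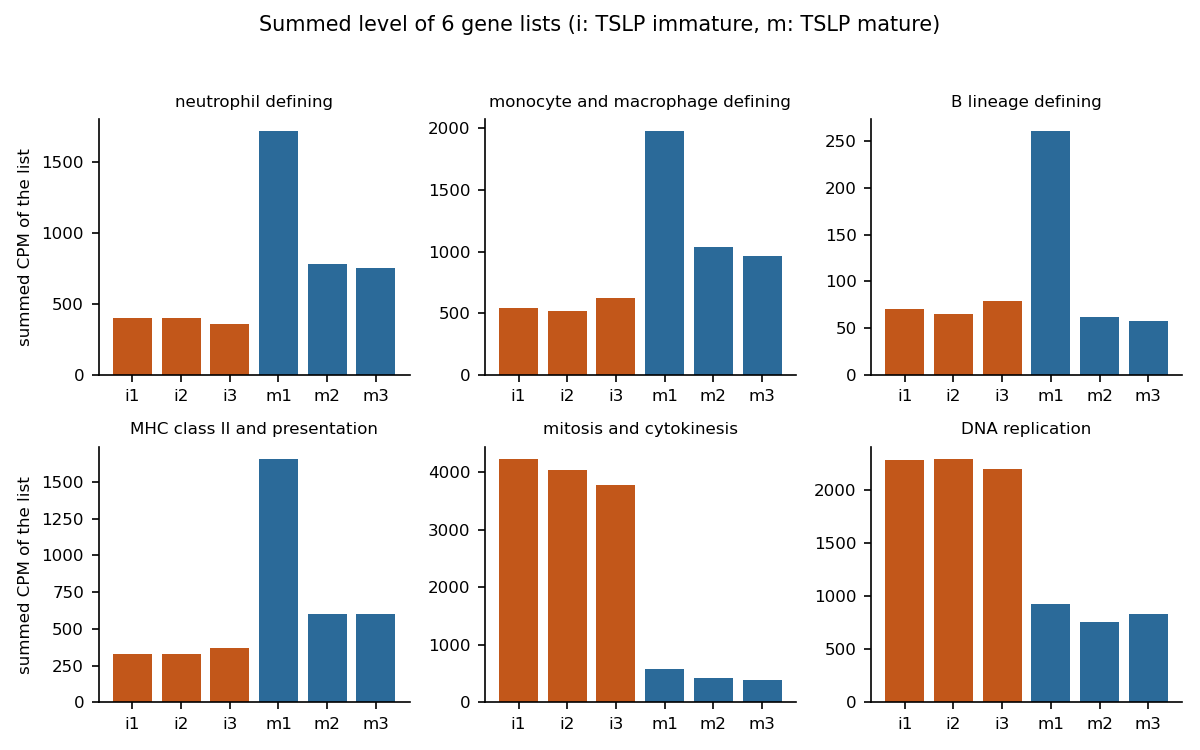
Summed CPM (y axis) of 6 gene lists in each TSLP library (x axis, i1 to i3 immature, m1 to m3 mature); 1 bar is 1 library. TSLP mature 1 (m1) stands above m2 and m3 for the neutrophil, monocyte, B lineage and MHC class II lists, while both cell cycle lists are higher in all 3 immature libraries than in any mature library.

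Between immature and mature cells, 1328 of 10861 tested genes (12.2%) were higher in immature cells, and 1403 (12.9%) were higher in mature cells (edgeR's quasi-likelihood test, with a threshold of 0.05 on the p adjusted by the method of Benjamini and Hochberg). At least a 2-fold difference was seen for 925 and 627 of them, and at least a 4-fold difference for 396 and 154, so large differences lay more often on the immature side. The median log2 difference over all tested genes, immature minus mature, was -0.03. In 1940 genes (17.9%) all 3 immature libraries lay above all 3 mature libraries, and in 2219 (20.4%) they lay below. Without TSLP mature 1, 2095 of 11020 genes (19.0%) were called for immature and 1361 (12.4%) for mature cells. Of the original calls, 1289 immature and 1092 mature calls were kept, 39 and 311 were lost and 0 changed direction. Leaving out each of the 6 TSLP libraries in turn, 900 genes were called for immature and 602 for mature cells in every one of the 6 fits.

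**Figure D2:**
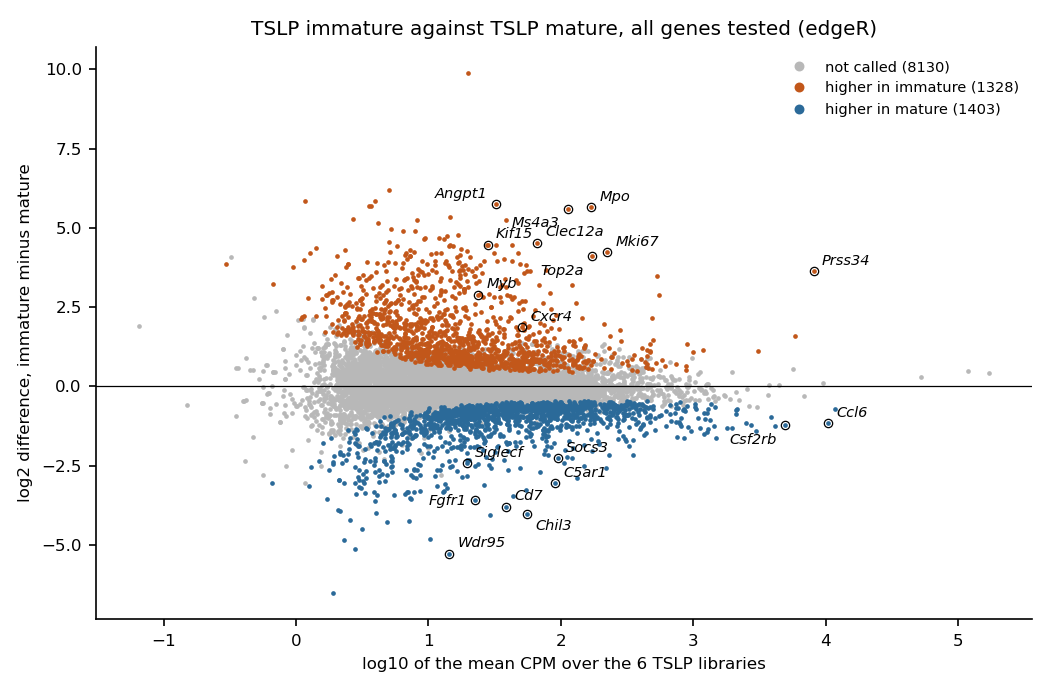
Log2 difference between TSLP immature and TSLP mature cells (y axis) against the log10 mean CPM over the 6 TSLP libraries (x axis) for all 10861 tested genes; orange, called higher in immature (1328); blue, called higher in mature (1403); grey, not called. Prss34 combines a high level with a large difference. Angpt1, Mpo, Ms4a3, Top2a, Mki67 and Kif15 reach log2 differences above 4, and Myb lies below that.

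The markers that define the sort came first. Itga2, which encodes CD49b (chr13:114833081-114932100), was at 81.5, 89.1 and 88.5 CPM in immature and at 96.9, 209 and 199 CPM in mature libraries. All 3 mature libraries lay above the immature ones, TSLP mature 1 only just (log2 -0.96, SE 0.25, edgeR adjusted p = 0.0111). Fcer1a, the α chain of the IgE receptor, was at 1262, 1222 and 1530 CPM in immature and at 1778, 871 and 1141 CPM in mature libraries. Those groups overlapped and the gene was not called (log2 0.08, edgeR adjusted p = 0.835). Without TSLP mature 1 it was 0.50 higher in immature cells (adjusted p = 0.048). Since the 2 proteins set the gates, their transcripts check the sort and are no finding.

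Other surface genes were compared as well. Clec12a, an inhibitory C-type lectin receptor of myeloid cells (chr6:129342691-129365303), was at 123, 113 and 145 CPM in immature and at 12.1, 2.27 and 1.54 CPM in mature cells. The lowest immature library was thus far above the highest mature one, which was TSLP mature 1 (log2 4.54, SE 0.49, edgeR adjusted p = 4.6e-06, and 6.11 without that library). Cd9, a tetraspanin, ran the other way, at 522, 457 and 638 CPM against 1356, 771 and 1113 CPM (log2 -1.0, SE 0.21, edgeR adjusted p = 0.00235, and -0.71 without TSLP mature 1). Cd200r3, for which both groups were gated positive, was 0.65 lower on the log2 scale in immature cells (edgeR adjusted p = 0.00982), and Cd34, a progenitor marker below 6 CPM in every library, was not called (log2 1.11, edgeR adjusted p = 0.0747).

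Granule genes of basophils were higher in immature cells. Prss34, the mouse mast cell protease 11 of basophils, was at 14513, 14188 and 16520 CPM in immature and at 1499, 962 and 1173 CPM in mature libraries, a 12.4-fold difference (log2 3.64, SE 0.23, edgeR adjusted p = 3.41e-08, and 3.91 without TSLP mature 1). Mcpt8, the basophil-specific protease, was at 9037, 8592 and 8667 CPM against 4236, 2166 and 2290 CPM (log2 1.6, SE 0.24, edgeR adjusted p = 0.00015), and its mature level was highest in TSLP mature 1. Cpa3, carboxypeptidase A3, was 1.15 higher on the log2 scale (SE 0.19, edgeR adjusted p = 0.000355). Of 11 listed granule genes 5 could be tested, and these 3 were called, with and without TSLP mature 1. Srgn, the proteoglycan that packs granule contents, and Gzmb were not called (log2 -0.42 and 0.10).

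Most tested genes of the myeloid azurophil granule list went with them. Mpo, myeloperoxidase (chr11:87793581-87804413), was at 367, 328 and 306 CPM in immature and at 17.0, 1.13 and 1.23 CPM in mature libraries, so that most of its mature signal lay in TSLP mature 1 (log2 5.65 with and 8.18 without it). Ms4a3, which marks granulocyte-monocyte progenitors (chr19:11629496-11640851), was at 222, 223 and 221 CPM against 8.36, 3.12 and 1.85 CPM (log2 5.60, SE 0.36, edgeR adjusted p = 4.37e-08, and 6.54 without TSLP mature 1). Ctsg, cathepsin G, was at 958, 978 and 1003 CPM against 125, 62.4 and 75.1 CPM (log2 3.48, SE 0.26, edgeR adjusted p = 1.29e-07). In all 3 genes the 2 groups were far apart and TSLP mature 1 was the mature library nearest to the immature ones. With Serpinb1a, a neutrophil protease inhibitor (log2 0.59), 4 of 5 tested genes of this list were called, all higher in immature cells. The counts were the same without TSLP mature 1. The other tested gene, Prtn3, was called in neither fit and with all libraries did not lean towards immature cells. Without an expression filter 6 genes of the list were tested, and 4 were called higher in immature and 1 in mature cells. LOC102636203, an unnamed locus, was called in immature cells and had 0 counts in the mature libraries, which puts it at least 137-fold higher against a floor of 3 counts over the group. Angpt1, a ligand of the receptor Tie2 that haematopoietic progenitors make (chr15:42424723-42676977), was at 63.7, 62.1 and 64.7 CPM against 1.35, 0.85 and 1.23 CPM (log2 5.74, SE 0.38, edgeR adjusted p = 5.51e-08). Exons of a gene on the opposite strand cover 15% of the exon bases of Mpo and 14.2% of those of Angpt1, and without strand information such reads cannot be told apart.

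**Figure D3:**
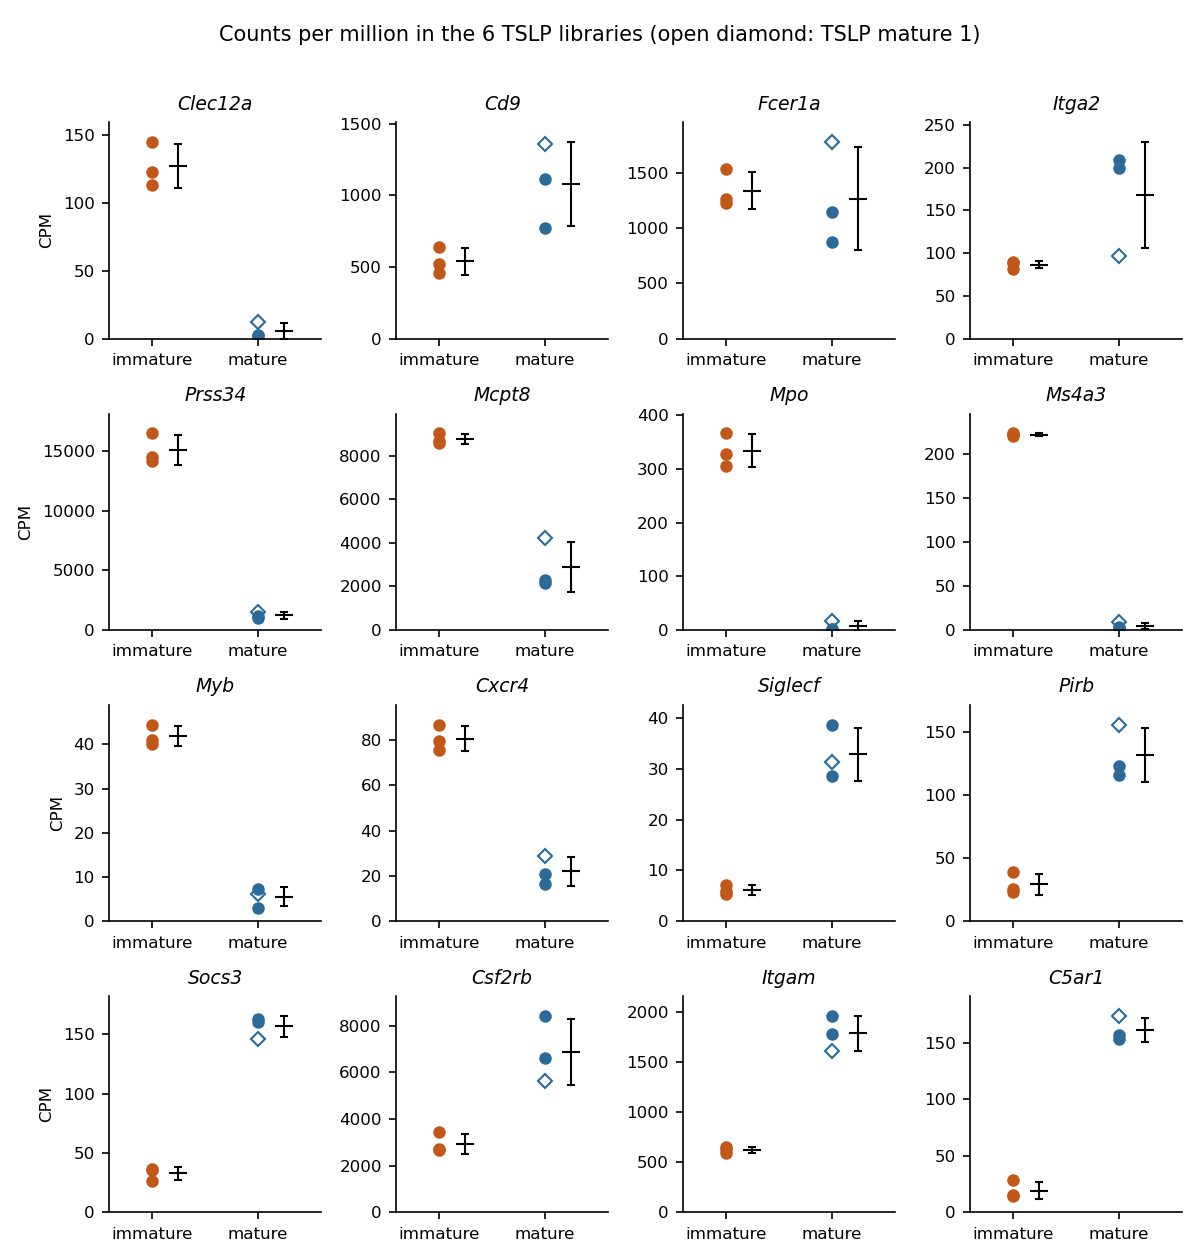
CPM (y axis, from 0) of 16 genes in the 6 TSLP libraries; orange, immature; blue, mature; open diamond, TSLP mature 1; the dash and whiskers beside the points give mean and SD of 3 libraries. The groups do not overlap in any of the 16 genes except Fcer1a, and Itga2 separates by a small gap at TSLP mature 1. No overlap was a condition for genes picked by the size of their difference.

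Genes of the cell division cycle were higher in immature cells nearly throughout. Of 59 tested genes of mitosis and cytokinesis, 58 were called higher in immature cells and 0 higher in mature cells, with a median log2 difference of 3.61. Without TSLP mature 1 the numbers were 57 and 0, with a median of 4.03. Summed over the list, the level was 4226, 4031 and 3765 CPM in immature and 580, 420 and 387 CPM in mature libraries. The exception was Pttg1, securin, at 6.92, 12.1 and 4.09 CPM against 18.3, 12.5 and 7.08 CPM (log2 -0.74, edgeR adjusted p = 0.181). In bulk RNA, fewer cells of a type and less RNA per cell cannot be told apart, so these values do not say what share of either population was dividing.

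Top2a, the DNA topoisomerase of dividing cells, was at 347, 328 and 309 CPM in immature and at 21.3, 18.7 and 17.2 CPM in mature libraries (log2 4.10, SE 0.18, edgeR adjusted p = 1.37e-09, and 4.28 without TSLP mature 1). Mki67, the antigen Ki-67, was at 404, 452 and 426 CPM against 16.2, 31.2 and 20.3 CPM (log2 4.24, SE 0.24, edgeR adjusted p = 1.81e-08, and 4.14 without it). Mature libraries thus kept a low signal of both, above 15 CPM in each library, and it was no higher in TSLP mature 1 for Mki67. The mitotic motors and kinetochore genes Kif15, Cenpe, Cenpf and Kif2c had log2 differences of 4.47, 4.46, 4.45 and 4.43. Others among the 12 largest immature differences belong to the same process. These were Cit, citron kinase of the cleavage furrow (4.77), Depdc1a (4.68), and Casc5, the older symbol of the kinetochore gene Knl1 that the table lists in a row of its own (4.74, against 2.51 for the row Knl1). Hist1h1b, a replication-dependent linker histone, was 5.33 and Mns1 5.26 higher on the log2 scale. Opposite-strand exons cover 53.0% of the exon bases of Mns1, and 60.8% of the 50-base stretches of Depdc1a occur in another gene, so both are uncertain.

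Genes of DNA replication followed with smaller differences. Of 51 tested, 46 were higher in immature cells and 1, the clamp loader subunit Rfc2, was higher in mature cells (log2 -0.53), with a median of 1.98. Without TSLP mature 1 that single mature call was lost, and 46 genes were again called for immature cells (median 2.32), 45 of them the same. Tk1, thymidine kinase, was at 35.2, 34.4 and 35.4 CPM in immature and at 5.13, 2.27 and 1.23 CPM in mature libraries (log2 3.56, SE 0.35, edgeR adjusted p = 1.67e-06, and 4.37 without TSLP mature 1). Pcna, the sliding clamp, differed far less, at 209, 221 and 237 CPM against 144, 97.3 and 139 CPM (log2 0.81, SE 0.18, edgeR adjusted p = 0.0034). Between these lay Clspn (3.42), Rrm2 (3.28), Lig1 (2.89) and Mcm5 (2.74), which serve the checkpoint, nucleotide supply, ligation and the replicative helicase.

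Since both lists moved nearly as blocks, the promoters of their genes were searched for motifs of cell cycle regulation. RefSeq promoters (GRCm38.p6, from 250 bases before to 50 after the gene start) were found for 49 of the 59 mitosis genes and 41 of the 51 replication genes. The motifs were the CCAAT box (CCAAT), the cell cycle homology region, or CHR (TTTGAA), an E2F site (TTCCCGC or TTGGCGC) and a GATA site (AGATAA), on both strands. The last 4 bases of a reversed CCAAT box and the first 4 of TTGGCGC are alike, so these 2 can overlap. The CHR occurred in 70.4% of 54 mitosis promoters, 18% of 50 replication promoters and 17.9% of all 32851 promoters. A CCAAT box occurred in 75.9%, 56.0% and 37.4%, and both together in 61.1%, 8.0% and 6.95%. E2F letters occurred in 22.2% of mitosis promoters, 52.0% of replication promoters and 6.81% of all. The list members are tested genes, and among 10485 promoters of tested genes 12.9% held a CHR and 12.2% E2F letters. In that set 38.35% held a CCAAT box and 5.53% both CCAAT box and CHR. The 2 lists therefore differed in the letters they share, CHR in the mitotic and E2F in the replication promoters. Over all promoters of genes called higher in immature cells, 20.5% held a CHR and 21.0% E2F letters, against 11.3% and 7.66% of those called higher in mature cells and 12% and 11.6% of those tested and not called. A match is a description of letters and not evidence of binding.

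These windows show these motifs in 4 genes of mitosis (Top2a at chr11:99024140-99024439, Cdk1 at chr10:69352863-69353162 and Mki67 at chr7:135716330-135716629 on the minus strand, Kif15 at chr9:122950831-122951130 on the plus strand), in Mcm5 of the replicative helicase (chr8:75109259-75109558, plus strand) and, for contrast, in the granule protease gene Prss34 (chr17:25298144-25298443, plus strand). Capitals mark the matches to any of the 4 motifs, and each window reads 5′ to 3′ in the direction of the gene.
Top2a: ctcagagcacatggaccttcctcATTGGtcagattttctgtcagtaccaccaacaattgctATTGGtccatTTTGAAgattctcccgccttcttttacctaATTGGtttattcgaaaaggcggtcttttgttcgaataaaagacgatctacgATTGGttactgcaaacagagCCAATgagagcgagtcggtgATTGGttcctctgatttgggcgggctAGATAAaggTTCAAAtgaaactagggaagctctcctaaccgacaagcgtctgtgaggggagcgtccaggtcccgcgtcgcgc
Cdk1: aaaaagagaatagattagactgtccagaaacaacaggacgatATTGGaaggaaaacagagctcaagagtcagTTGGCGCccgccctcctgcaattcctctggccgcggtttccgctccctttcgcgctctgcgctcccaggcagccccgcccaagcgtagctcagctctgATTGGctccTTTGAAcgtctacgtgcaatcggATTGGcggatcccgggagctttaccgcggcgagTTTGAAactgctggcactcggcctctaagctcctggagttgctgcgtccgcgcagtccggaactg
Mki67: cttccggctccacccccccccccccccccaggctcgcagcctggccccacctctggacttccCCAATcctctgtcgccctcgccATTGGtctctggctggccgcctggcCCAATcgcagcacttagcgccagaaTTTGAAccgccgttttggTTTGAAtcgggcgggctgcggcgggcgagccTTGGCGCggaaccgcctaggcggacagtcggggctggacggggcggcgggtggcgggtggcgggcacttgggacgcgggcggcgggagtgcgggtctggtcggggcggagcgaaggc
Kif15: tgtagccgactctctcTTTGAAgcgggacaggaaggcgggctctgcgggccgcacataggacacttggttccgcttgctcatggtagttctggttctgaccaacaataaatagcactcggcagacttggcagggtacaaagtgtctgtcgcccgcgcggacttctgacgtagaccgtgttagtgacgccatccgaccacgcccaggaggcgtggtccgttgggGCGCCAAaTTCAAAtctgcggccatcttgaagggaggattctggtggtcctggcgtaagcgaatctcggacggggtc
Mcm5: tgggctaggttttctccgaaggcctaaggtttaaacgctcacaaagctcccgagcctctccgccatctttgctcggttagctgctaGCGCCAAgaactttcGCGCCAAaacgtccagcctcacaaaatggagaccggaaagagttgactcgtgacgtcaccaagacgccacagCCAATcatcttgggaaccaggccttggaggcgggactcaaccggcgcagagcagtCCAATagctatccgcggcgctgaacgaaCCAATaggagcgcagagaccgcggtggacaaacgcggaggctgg
Prss34: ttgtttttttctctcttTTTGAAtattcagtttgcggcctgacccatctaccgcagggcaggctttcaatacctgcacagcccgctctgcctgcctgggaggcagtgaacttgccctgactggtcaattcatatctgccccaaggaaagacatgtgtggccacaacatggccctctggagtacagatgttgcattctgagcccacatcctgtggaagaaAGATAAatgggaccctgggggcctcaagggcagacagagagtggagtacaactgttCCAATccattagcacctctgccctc

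Top2a held 6 CCAAT boxes, 2 CHR matches and 1 GATA match, Cdk1 and Mki67 held 3 CCAAT boxes, 2 CHR matches and 1 E2F match each, and Kif15 held 2 CHR matches and 1 E2F match without a CCAAT box. Mcm5 held 3 CCAAT boxes and 2 E2F matches and no CHR. Prss34 held a GATA match, which 11.2% of all promoters have, and 1 CCAAT box and 1 CHR match as well, which shows that single matches occur outside cell cycle genes.

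Genes that restrain division leaned towards mature cells. Of 26 tested genes of cell cycle exit and CDK inhibition, 16 (61.5%) were higher in mature and 2 (7.69%) in immature cells, against 12.9% and 12.2% of all tested genes. The counts were again 16 and 2 without TSLP mature 1, with 15 calls kept, and the median log2 difference was -0.67 with and without it. Btg1, an antiproliferative gene, was at 176, 167 and 229 CPM in immature and at 341, 507 and 550 CPM in mature libraries (log2 -1.29, SE 0.20, edgeR adjusted p = 0.000208). Foxo1, a transcription factor of quiescence, was 1.44 and Gadd45b 1.27 lower in immature cells on the log2 scale, and the CDK inhibitor Cdkn1a 0.69 lower, the last not called without TSLP mature 1. Both exceptions, Rbl1 (log2 1.52) and Cdkn2c (log2 1.51), encode restraints of the G1 to S transition and were higher in immature cells. Of 9 tested genes of the MYC network, 4 (44.4%) were higher in mature and 1 (11.1%) in immature cells, the latter near the 12.2% of all tested genes. Without TSLP mature 1 the counts were 3 and 2, and Myc itself was called higher in immature cells only then. Mxd3, an antagonist of MYC found in S phase, was at 22.2, 29.7 and 32.0 CPM against 3.78, 0.85 and 1.85 CPM (log2 3.65, SE 0.35, edgeR adjusted p = 1.33e-06, and 4.44 without TSLP mature 1). Its relative Mxd1 (log2 -0.83) and their partner Max (log2 -0.67) were higher in mature cells.

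Growth and membrane synthesis genes were higher in immature cells by smaller amounts. Of 49 tested genes of ribosome biogenesis, 16 were called and all were higher in immature cells (median 0.63, and 22 with a median of 0.70 without TSLP mature 1), among them the small nucleolar ribonucleoprotein genes Dkc1 (1.58), Nhp2 (1.5) and Nop58 (1.34). Of 23 cholesterol synthesis genes, 17 were called, again all higher in immature cells (median 1.07, and 18 with a median of 1.39 without TSLP mature 1). Cyp51, lanosterol demethylase, was at 96.2, 95.3 and 80.7 CPM against 26.4, 23.3 and 23.4 CPM (log2 1.89, SE 0.17, edgeR adjusted p = 6.09e-07), and Fdps, Idi1 and Sqle had log2 differences of 1.87, 1.81 and 1.59. Of 22 glycolysis genes, 3 were higher in immature cells (such as Pgk1, 0.57, and Pdk1, 1.1), a share of 13.6% near the 12.2% of all tested genes. The 5 higher in mature cells (22.7%, against 12.9% of all tested genes) included the glucose transporter Slc2a1 (-1.09) and Aldoa (-0.72). When TSLP mature 1 was left out, the counts were 5 and 5 and the median moved from -0.07 to 0.06.

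Nuclear architecture genes differed by kind. Of 21 tested, 9 (42.9%) were higher in immature and 1 (4.76%) in mature cells, against 12.2% and 12.9% of all tested genes. The median was 0.16, and the counts were 10 and 2 without TSLP mature 1 (median 0.22). The 9 include Tmpo, lamina-associated polypeptide 2, at 155, 130 and 141 CPM against 21.9, 28.1 and 27.7 CPM (log2 2.46, SE 0.19, edgeR adjusted p = 2.07e-07), and the chromatin proteins Hmgn2 (2.89) and Hmgb2 (2.16). Lmna, the A-type lamin, was the single gene higher in mature cells, at 18, 15.6 and 14.6 CPM against 36.2, 25 and 31.7 CPM (log2 -0.94, SE 0.25, edgeR adjusted p = 0.0106).

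**Figure D4:**
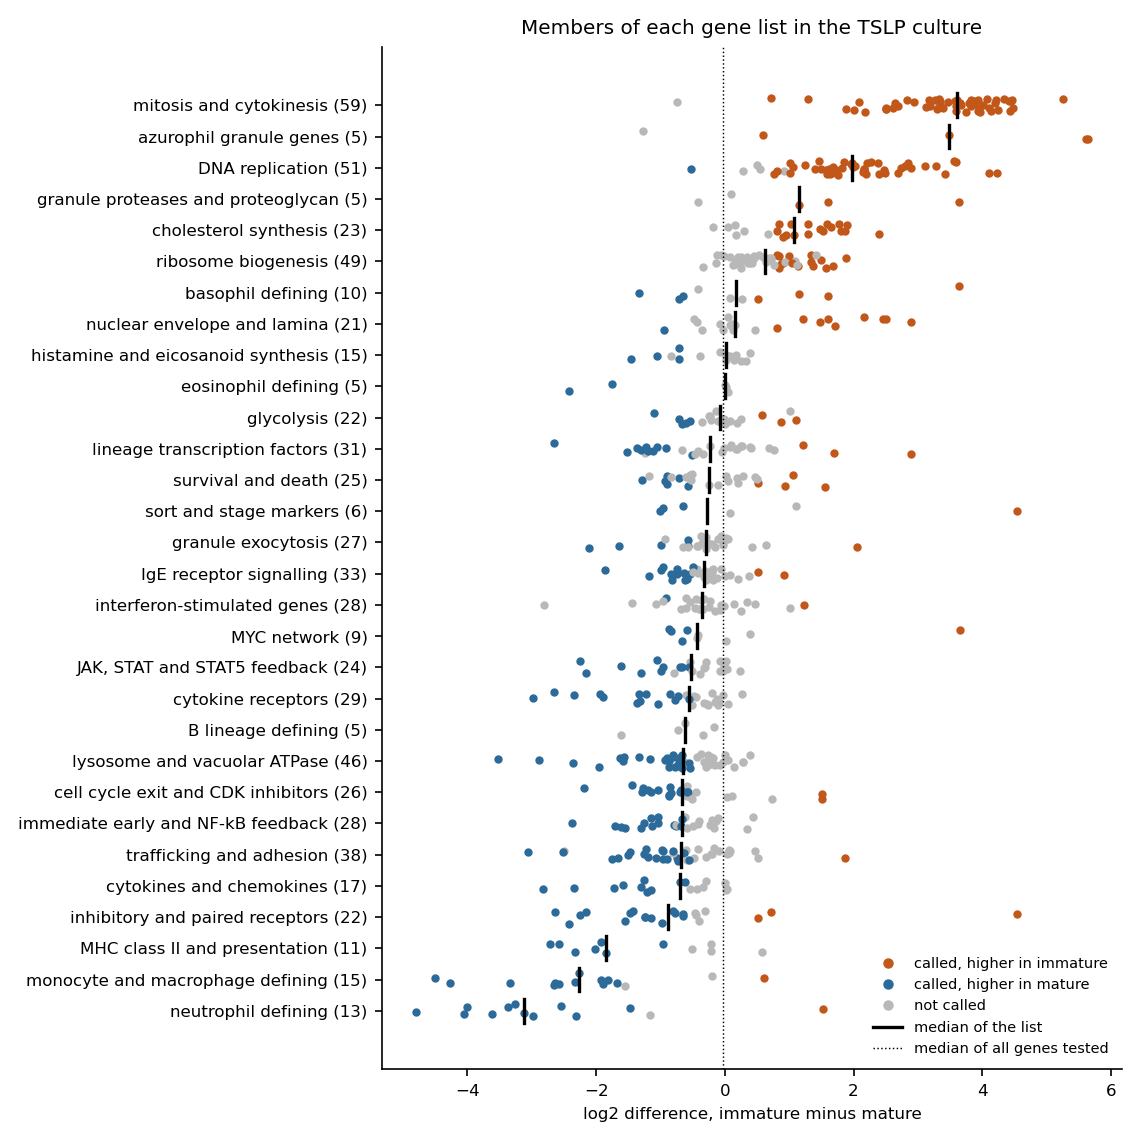
Log2 difference, immature minus mature (x axis), of every tested member of 30 gene lists (y axis, number tested in brackets) in the TSLP culture; orange and blue points are called higher in immature and in mature cells, grey points are not called, the bar is the list median and the dotted line the median of all tested genes (-0.03). The medians of the mitosis and azurophil granule lists lie far to the right, while those of the receptor, chemokine and trafficking lists lie to the left of the dotted line.

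Receptors that mature basophils carry were higher in mature cells. Of 22 tested inhibitory and paired receptors, 15 (68.2%) were higher in mature and 3 (13.6%) in immature cells (median -0.89, and 13 against 3 without TSLP mature 1). The shares of all tested genes were 12.9% and 12.2%, so the immature share was near that of all genes. Siglecf, a sialic acid receptor known from eosinophils, was at 5.41, 5.86 and 7.15 CPM in immature and at 31.3, 28.7 and 38.8 CPM in mature libraries (log2 -2.41, SE 0.24, edgeR adjusted p = 2.34e-06). Pirb, a receptor for MHC class I, was at 25.9, 23.4 and 38.8 CPM against 156, 123 and 116 CPM (log2 -2.16, SE 0.22, edgeR adjusted p = 2.19e-06). The stages did not overlap for either gene, a condition of their selection, and TSLP mature 1 was the highest mature library for Pirb only. Lilrb4a, an inhibitory receptor for fibronectin, and Cd300lf, a lipid-binding receptor, were 1.14 and 1.24 lower in immature cells. The 3 members higher in immature cells were Clec12a, Clec4e (0.72), a receptor for fungal glycolipids, and Ms4a2 (0.51), the β chain of the IgE receptor. Related genes share 34.0% of the 50-base stretches of Pirb and 46.7% of those of Lilrb4a, which leaves their counts uncertain.

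In the cytokine receptor list 14 of 29 tested genes were higher in mature and 0 higher in immature cells (median -0.56, and 14 against 0 with a median of -0.37 without TSLP mature 1). Csf2rb, the β chain shared by the IL-3, IL-5 and GM-CSF receptors, was at 2660, 2701 and 3447 CPM in immature and at 5643, 6611 and 8424 CPM in mature libraries (log2 -1.23, SE 0.20, edgeR adjusted p = 0.000231). Csf2rb2, its IL-3-specific relative, differed by -1.33. Of the TSLP receptor, Il7r was at 38.2, 32.0 and 31.7 CPM against 82.6, 94.2 and 76.6 CPM (log2 -1.31, SE 0.21, edgeR adjusted p = 0.000211). The other chain, Crlf2, was at 80.9, 89.5 and 100.1 CPM against 113, 70.1 and 109 CPM, with overlapping groups (log2 -0.11, edgeR adjusted p = 0.724). Il10ra, the ligand-binding chain of the IL-10 receptor, differed by -1.37.

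In the list of JAK and STAT genes and STAT5 feedback, 10 of 24 tested genes were higher in mature cells against 0 (median -0.52, and 11 against 0 with a median of -0.46 without TSLP mature 1). They were Jak1, Stat5a, Stat5b and Stat6 of the pathway itself, the inhibitors Cish, Socs1 and Socs3, and Ccnd2, Osm and Pim2, and the call of Stat5a was lost without TSLP mature 1. Socs3, which blocks JAK kinases, was at 26.2, 36.3 and 36.1 CPM in immature and at 146, 161 and 163 CPM in mature libraries (log2 -2.26, SE 0.17, edgeR adjusted p = 1.85e-07). Ccnd2, cyclin D2 and a STAT5 target, was at 84.5, 76.2 and 94.3 CPM against 349, 400 and 382 CPM (log2 -2.15, SE 0.19, edgeR adjusted p = 5.49e-07). Thus a G1 cyclin ran against the mitotic genes. Socs1, Osm and Cish, also induced by STAT5, had log2 differences of -1.61, -1.30 and -0.99.

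Chemokine and growth factor genes were among the most abundant transcripts that differed. Of 17 tested cytokines and chemokines, 10 were higher in mature and 0 in immature cells (median -0.69, and 10 against 0 with a median of -0.65 without TSLP mature 1). Ccl6 and Ccl9, CC chemokines of mouse myeloid cells, reached 19182, 11697 and 12260 CPM and 7161, 4408 and 6114 CPM in mature libraries, against 5882, 6015 and 7488 CPM and 2174, 2044 and 3160 CPM in immature ones (log2 -1.15 and -1.26). Both were highest in TSLP mature 1 and remained called without it (log2 -0.80 and -1.01, edgeR adjusted p = 0.00131 and 0.00127). Csf1, the macrophage growth factor, did not lean on that library, at 140, 138 and 157 CPM against 408, 482 and 540 CPM (log2 -1.72, SE 0.18, edgeR adjusted p = 3.72e-06). The chemokines Ccl3 and Ccl4 differed by -1.21 and -1.58. Il4 and Il13, the type 2 cytokines, were not called (log2 -0.30 and 0.04, edgeR adjusted p = 0.464 and 0.963), with Il13 at 2.04 to 3.51 CPM in all 6 libraries.

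Of 15 genes of histamine and eicosanoid synthesis, 4 (26.7%, against 12.9% of all tested genes) were higher in mature and 0 in immature cells. The counts were 5 and 0 without TSLP mature 1. Hdc, histidine decarboxylase, was at 627, 636 and 674 CPM against 1038, 1073 and 1066 CPM (log2 -0.71, SE 0.17, edgeR adjusted p = 0.00626). Tbxas1, thromboxane synthase, differed by -1.05 and Abcc1, an exporter of leukotriene C4, by -0.71. In the 38 tested trafficking and adhesion genes, 19 (50%) were higher in mature and 1 (2.63%) in immature cells, against 12.9% and 12.2% of all tested genes. The median was -0.68, and the counts were 21 against 1 without TSLP mature 1. Itga2, whose protein set the gates, is among the mature calls in both fits. The single immature gene was Cxcr4, the bone marrow retention receptor, at 86.9, 79.7 and 75.6 CPM against 28.9, 16.5 and 20.6 CPM (log2 1.87, SE 0.24, edgeR adjusted p = 2.91e-05). Receptors and adhesion molecules used in the blood and in tissue lay on the other side. C5ar1, the receptor for complement C5a, was at 14.1, 15.6 and 28.3 CPM against 174, 153 and 157 CPM (log2 -3.06, SE 0.23, edgeR adjusted p = 1.29e-07). Itgam, the integrin CD11b, was at 630, 595 and 653 CPM against 1611, 1959 and 1779 CPM (log2 -1.51, SE 0.17, edgeR adjusted p = 7.74e-06). C3ar1, Cxcr2, Ccr3 (the eotaxin receptor) and S1pr1 (the receptor for exit from tissue) had log2 differences of -1.66, -1.47, -1.76 and -0.96.

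The signalling chain of the IgE receptor showed modest differences. Of 33 tested genes 13 (39.4%) were higher in mature and 2 (6.06%) in immature cells (median -0.32, and 13 against 3 with a median of -0.24 without TSLP mature 1). Fcer1a, whose protein set the gates, is among those 3. The shares of all tested genes were 12.9% and 12.2%, so the immature share with all libraries lay below that of all genes. Immature cells had more Ms4a2 and Prkcb, a protein kinase C (0.92). Mature cells had more Plcg1 (-1.18), a phospholipase that starts calcium release, Pik3cd (-0.97) and the inhibitory receptor Fcgr2b (-1.0). Plcg1 was at 33.4, 48.4 and 40.5 CPM against 76.4, 106 and 93.5 CPM, with no overlap, a condition of its selection. For granule exocytosis, 5 of 27 tested genes (18.5%, against 12.9% of all tested genes) were higher in mature and 1 (3.7%, against 12.2%) in immature cells. Without TSLP mature 1 the counts were 4 against 3. Stx11, a syntaxin needed for degranulation of cytotoxic cells, was at 6.61, 9.77 and 5.79 CPM against 29.4, 29.2 and 36.9 CPM (log2 -2.12, SE 0.25, edgeR adjusted p = 1.21e-05), and Sytl3 and Rab44 differed by -1.65 and -0.98. Rab27b, a GTPase of secretory granules, was higher in immature cells, at 16.2, 15.6 and 15.3 CPM against 3.24, 1.42 and 6.77 CPM (log2 2.06, SE 0.34, edgeR adjusted p = 0.000327).

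Lysosomal genes were higher in mature cells for 26 of 46 tested and for 0 in the other direction (median -0.65). Without TSLP mature 1 they were 20 against 2. Ctsd, cathepsin D, was at 690, 677 and 831 CPM against 2609, 2026 and 2158 CPM (log2 -1.63, SE 0.20, edgeR adjusted p = 1.9e-05). Ctss, cathepsin S, was at 31.0, 29.3 and 34.4 CPM against 484, 123 and 95.1 CPM, so that TSLP mature 1 stood far above its replicates (log2 -2.89 with and -1.70 without it). The summed monocyte list moved with it, at 1977 CPM in TSLP mature 1 against 1035 and 962, and its part in the result was not tested.

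Among 31 tested lineage transcription factors, 3 (9.68%) were higher in immature and 10 (32.3%) in mature cells, against 12.2% and 12.9% of all tested genes. Leaving out TSLP mature 1 gave 4 and 10, and the median moved from -0.22 to 0.04. Myb, which keeps haematopoietic progenitors dividing (chr10:21124935-21160984), was at 44.5, 41.0 and 40.2 CPM against 6.21, 7.38 and 3.08 CPM (log2 2.90, SE 0.28, edgeR adjusted p = 1.76e-06), and Lmo4 differed by 1.22. Bhlhe40 was at 63.4, 69.5 and 68.8 CPM against 155, 154 and 161 CPM (log2 -1.22, SE 0.15, edgeR adjusted p = 2.53e-05). Id1 and Id2, inhibitors of basic helix-loop-helix factors, Cebpd, Nfil3 and Tal1 had log2 differences of -1.52, -1.29, -1.37, -1.12 and -1.20. Factors that set basophil identity were not called, with Gata2 at 843, 887 and 904 CPM against 1131, 1191 and 1199 CPM (log2 -0.42, edgeR adjusted p = 0.0989) and Cebpa at log2 -0.02 (edgeR adjusted p = 0.967).

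Of 28 immediate early and NF-κB feedback genes, 14 were higher in mature and 0 in immature cells (median -0.67, and 16 against 0 with a median of -0.65 without TSLP mature 1). Junb was at 327, 374 and 549 CPM against 1012, 1274 and 1553 CPM (log2 -1.62, SE 0.24, edgeR adjusted p = 0.000102). Dusp6, the phosphatase that restrains ERK, was at 150, 141 and 158 CPM against 431, 436 and 447 CPM (log2 -1.55, SE 0.16, edgeR adjusted p = 3.12e-06), and Ier5 and Zfp36 differed by -1.71 and -1.31. Members of the survival list were called in both directions. Immature cells had more of Bak1 (0.52), an effector of cell death at mitochondria, whereas mature cells had more of the survival gene Mcl1 (-0.90) and of the pro-death genes Bmf (-1.29), Bbc3 (-0.92) and Bcl2l11 (-0.90). In all, 4 of 25 tested genes (16%) were higher in immature and 6 (24%) in mature cells, with the same counts without TSLP mature 1. The shares of all tested genes were 12.2% and 12.9%, so the immature share was near that of all genes. Of 28 interferon-stimulated genes, 1 was called in each direction (3.57% each, below the 12.2% and 12.9% of all tested genes). Irf9 (-0.91) was the mature one. The counts were 3 for immature and 1 for mature cells without TSLP mature 1.

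Antigen presentation genes were higher in mature cells, but the size depended on TSLP mature 1. Of 11 tested genes of MHC class II and presentation, 7 were higher in mature and 0 in immature cells with a median of -1.85. Without that library the numbers were 6 and 1 and the median was -1.13. Cd74, the invariant chain, was at 60.7, 57.8 and 68.8 CPM in immature and at 683, 224 and 212 CPM in mature libraries (log2 -2.58 with and -1.71 without TSLP mature 1). H2-Aa was at 20.7, 16.4 and 18.4 CPM against 231, 68.9 and 64.9 CPM (log2 -2.71 and -1.75). Cd86, a costimulatory ligand, was even among mature libraries, at 13.5, 14.8 and 13.3 CPM against 54.8, 42.3 and 60.3 CPM (log2 -1.92 and -1.79). B lineage markers summed to 261 CPM in TSLP mature 1 and to 56.9 and 61.8 CPM in its replicates, and what part they have in these genes was not tested.

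Transcripts named for neutrophils and monocytes behaved in 2 ways. In the neutrophil list, 11 of 13 tested genes were called higher in mature cells with all libraries and 4 without TSLP mature 1. The median moved from -3.12 to -0.55. Lcn2 of this list was called higher in immature cells in both fits. It had 393, 290 and 293 counts in immature and 326, 39 and 48 in mature libraries. Ltf, Ngp, S100a9, S100a8 and Apoe of these lists were not called without TSLP mature 1. S100a9 was at 17.4, 11.7 and 1.36 CPM in immature and at 283, 9.36 and 4.62 CPM in mature libraries, and its log2 difference turned from -3.27 to 0.65 without TSLP mature 1. Chil3, a chitinase-like lectin, kept its call, at 6.92, 8.60 and 4.09 CPM against 190, 67.2 and 57.8 CPM (log2 -4.01 with and -3.17 without TSLP mature 1), although 26.9% of its 50-base stretches also occur in related genes. In the monocyte list, 12 of 15 were higher in mature cells and 9 without that library (median -2.27 and -1.63). F13a1 of this list was the 1 gene called higher in immature cells, in both fits. It had 582, 426 and 581 counts in immature and 397, 449 and 386 in mature libraries. Adgre1, the antigen F4/80, was at 46.0, 49.2 and 58.9 CPM against 173, 214 and 199 CPM, so TSLP mature 1 was the lowest of the mature libraries (log2 -1.93 and -1.92). Mpeg1, perforin-2, was at 16.2, 12.5 and 13.6 CPM against 108, 75.8 and 71.1 CPM (log2 -2.58 and -2.27). C1qb, a complement component of macrophages, was at 0.90, 3.52 and 2.72 CPM against 51.0, 9.08 and 10.2 CPM (log2 -3.34 and -1.95).

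The largest mature differences outside these lists included genes of varied function. Wdr95 (chr5:149528679-149611894) was at 0.30, 1.17 and 0.68 CPM in immature and at 33.2, 21.3 and 29.2 CPM in mature libraries (log2 -5.27, SE 0.40, edgeR adjusted p = 1.72e-07). Cd7, a surface protein of lymphoid and myeloid cells (chr11:121036747-121039418), was at 4.51, 7.03 and 4.09 CPM against 99, 46.8 and 68.9 CPM (log2 -3.79, SE 0.30, edgeR adjusted p = 2.18e-07). Fgfr1, a fibroblast growth factor receptor (chr8:25513654-25575718), was at 2.10, 3.52 and 4.77 CPM against 32.1, 46.2 and 47.1 CPM (log2 -3.59, SE 0.30, edgeR adjusted p = 1.19e-06). None of these 3 overlapped between the stages, which the rule for naming them required. Gstm1, a glutathione transferase, and Amigo2, an adhesion molecule, differed by -3.45 and -3.09, and both kept their size without TSLP mature 1 (-3.15 and -3.10). Ms4a6d, Pla2g7 (an acetylhydrolase of platelet-activating factor) and Lpl (lipoprotein lipase) differed by -3.31, -3.20 and -3.13, and by -2.57, -2.36 and -1.84 without it.

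By the difference of mean CPM, the transcripts that differed most in amount included the proteases and Hsp90b1, an endoplasmic reticulum chaperone, Ptma, and the mitochondrial ribosomal RNA MT-Rnr1 on the immature side, and chemokines, actins and ferritin light chain on the mature side. MT-Rnr1 was at 5129, 4000 and 3488 CPM against 1297, 2405 and 2147 CPM (log2 1.11, SE 0.29, edgeR adjusted p = 0.00939). Actb, β-actin, was at 8627, 8244 and 10065 CPM against 17621, 11202 and 15484 CPM (log2 -0.72, SE 0.21, edgeR adjusted p = 0.0182). Ftl1, ferritin light chain, was at 1450, 1534 and 1914 CPM against 5952, 3223 and 3915 CPM (log2 -1.42, SE 0.23, edgeR adjusted p = 0.00024), with 50.9% of its 50-base stretches shared with near-identical copies. Of the other named genes, over 25% of the stretches recur elsewhere for Itgam (66.3%), Pgk1 (53.9%), Ctsd (32.4%), Fdps (26.2%) and Hmgn2 (25.4%). The share was 12.3% to 21.1% for Csf2rb, Idi1, Hmgb2, Csf2rb2, Gstm1, Pcna, Ptma and Sytl3. Opposite-strand exons cover 26.5% of the exon bases of Ftl1, 25.5% of those of Bak1 and 10.3% to 15.1% of those of Hsp90b1, Cd9, Cd7, Pla2g7, Cish, Cebpd and Rfc2. How such reads were assigned is not given in the sources used here.

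Whether the 2 stages differed by the same amount in both cultures was tested as an interaction, the TSLP difference minus the IL-3 difference. In IL-3 cultures 2404 genes (22.1%) favoured immature and 2616 (24.1%) mature cells, and 455 genes (4.19%) had a called interaction, or 723 without TSLP mature 1 and 240 to 450 when another library was left out. Of 320 genes called in both the TSLP comparison and the interaction, 314 had the same direction in both cultures and a smaller difference with TSLP. This split, and the interaction counts of lists and interaction values of genes that follow, are from the fit that includes TSLP mature 1. For mitosis genes the median was 3.61 with TSLP and 5.71 with IL-3, and 25 of 59 had a called interaction. For replication genes the medians were 1.98 and 3.72, with 22 of 51 called. Receptors, cytokines and feedback genes were less different with TSLP too. Medians were -0.89 and -2.38 for paired receptors (8 of 22 called), -0.69 and -2.51 for cytokines and chemokines (9 of 17), and -0.68 and -1.36 for trafficking genes (13 of 38, the gate gene Itga2 among them).

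Socs3 had a log2 difference of -2.26 with TSLP and -5.54 with IL-3 (interaction 3.29, edgeR adjusted p = 4.5e-06). Il7r had -1.31 and -4.96 (interaction 3.65, edgeR adjusted p = 8.4e-06). Top2a had 4.10 and 6.35 (interaction -2.26, edgeR adjusted p = 0.00014). No interaction was called for Mcpt8 (1.6 with TSLP and 1.69 with IL-3, edgeR adjusted p = 0.921), Cpa3 (1.15 and 1.04, edgeR adjusted p = 0.884) or Ctsg (3.48 and 3.7, edgeR adjusted p = 0.79), nor for Prss34 (3.64 and 4.64, edgeR adjusted p = 0.067). The 6 remaining genes differed more with TSLP or in the opposite direction. Nlrc3, a negative regulator of innate signalling, had 2.09 with TSLP and 0.53 with IL-3, Zranb3, a DNA translocase at stalled forks, 1.96 and 0.33, and Pld4, a lysosomal nuclease, -2.64 and -0.44. Clec4e was higher in immature cells with TSLP (0.72) and in mature cells with IL-3 (-1.14), as was F13a1, a clotting factor subunit of monocytes (0.61 and -0.67), and Tbxas1 had -1.05 and 0.37, the last not called. For Pld4 the TSLP difference was -1.84 without TSLP mature 1.

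**Figure D5:**
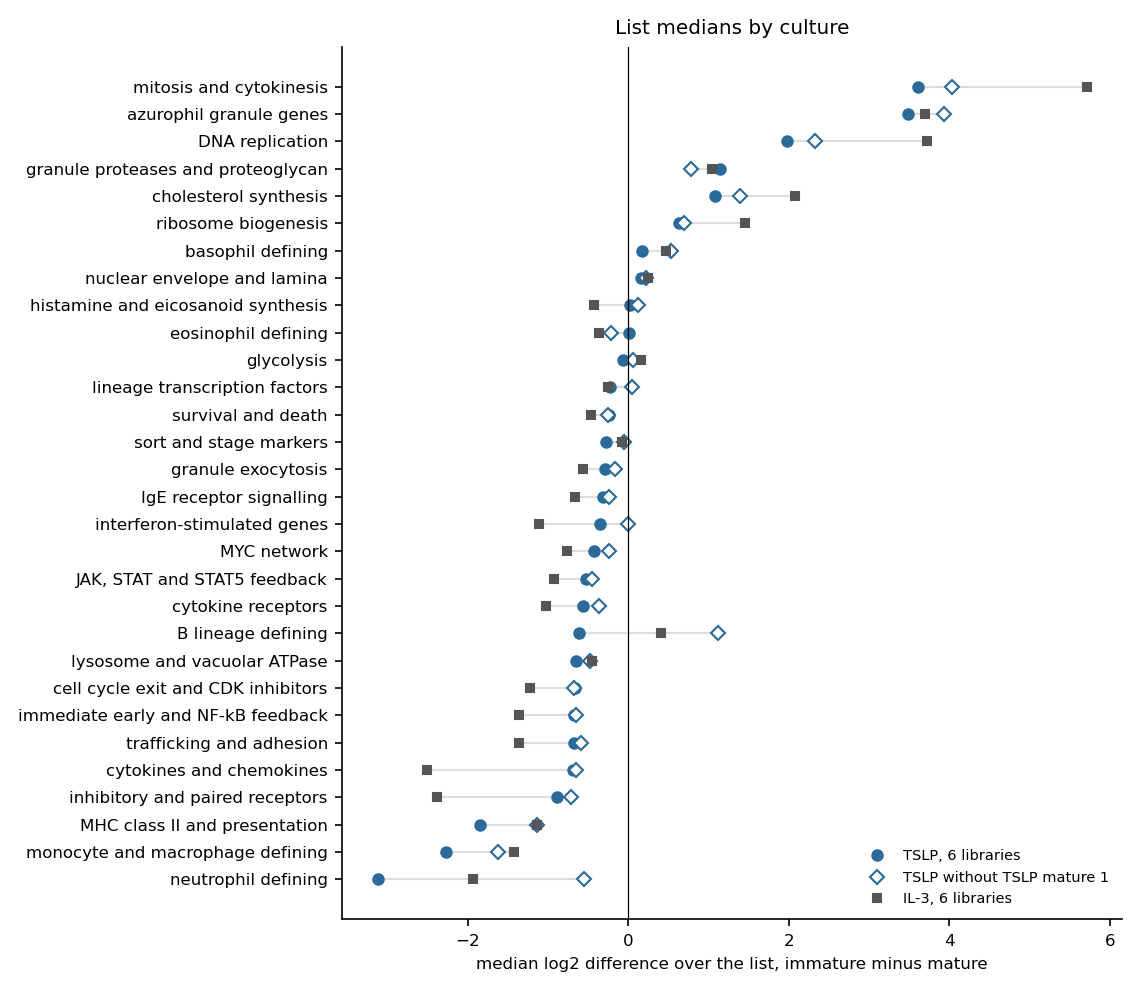
Median log2 difference, immature minus mature (x axis), of 30 gene lists (y axis) in TSLP cultures with all 6 libraries (filled circles), in TSLP cultures without TSLP mature 1 (open diamonds) and in IL-3 cultures (grey squares). The cell cycle lists (3.61 against 5.71 for mitosis) and the cytokine and receptor lists lie nearer to 0 with TSLP than with IL-3, and the neutrophil median moves from -3.12 to -0.55 without TSLP mature 1.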

How the data were processed

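RNA from sorted TSLP-elicited and IL-3-elicited BMBAs was sequenced after whole-transcriptome amplification. The authors deposited raw read counts per gene for 12 libraries, and their processing notes name cutadapt, Bowtie2 and the builds GRCm39 and mm10 (the paper names GRCm38). The sources used here do not give strand use or the treatment of reads with several matches. An unnamed row, 50% of each column and equal to the column's total, was removed. Genes passing filterByExpr (minimum count 10, minimum total 15) were tested with edgeR 4.0.16 (R 4.3.3) by the quasi-likelihood test after TMM scaling, in 1 fit over the 4 groups, with Benjamini-Hochberg adjustment over all tested genes and a threshold of 0.05. DESeq2 1.42.0 was an alternative. The common biological coefficient of variation was 20.4%. The floor of 3 counts over a group covers counting error only. The tests were tested on simulated data.

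Gene lists, members and tests were chosen with earlier results of these data known. Named genes were all sort markers and granule genes, the 12 largest differences per direction (mean of at least 10 CPM over the TSLP libraries, no overlap of groups, still called without TSLP mature 1), up to 4 such members per list and direction, list members with a called interaction, the 8 largest CPM differences per direction, genes larger in TSLP or opposite in IL-3, and 5 per direction whose call was lost without TSLP mature 1. Not every gene that the rule allows is named, and some are not reported here. Crlf2, Il3ra, Pttg1, Knl1, Rfc2, Il4, Il13, Rab27b, Gata2, Cebpa, Jak1, Stat5a, Stat5b, Stat6, Prtn3 and Myc were named outside it, after their values were seen. Positions are from GENCODE vM21 (GRCm38), and promoters from RefSeq.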

Additional observations from a re-analysis of the deposited data

Results flagged for a closer look

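The difference between the stages was compared between the cultures by the interaction term of the edgeR fit, and 455 genes were called, or 723 without TSLP mature 1. The interaction values below are from the fit that includes that library. Values are the log2 difference with TSLP minus that with IL-3, so that a negative value for a gene higher in immature cells, or a positive value for one higher in mature cells, is a smaller difference with TSLP. Cell division and growth genes with a called interaction were Top2a (-2.26), Mki67 (-2.10), Kif15 (-3.97), Cenpe (-3.06), Cdk1 (-2.23), Clspn (-1.90), Rrm2 (-3.22), Lig1 (-4.08), Pcna (-1.34), Mcm5 (-2.43), Tmpo (-2.07), Fdps (-1.88), Idi1 (-1.42), Sqle (-1.64) and Myb (-2.14). The CDK inhibitor Cdkn1a, higher in mature cells, had 1.37. Among receptors and trafficking genes the values were Itga2 (2.22), Il7r (3.65), Il10ra (1.32), Pirb (1.91), Lilrb4a (1.57), Cd300lf (2.18), C5ar1 (1.63), C3ar1 (1.92), Cxcr2 (2.03), Ccr3 (1.78), Itgam (1.56), S1pr1 (0.94), Fgfr1 (4.54), Adgre1 (2.65) and Cd86 (2.23). Itga2 encodes CD49b, which set the gates, so its value is no finding about the cultures. Signalling, cytokine and transcription genes gave Socs3 (3.29), Socs1 (1.95), Cish (2.05), Pim2 (1.21), Ccnd2 (1.32), Osm (1.75), Csf1 (1.6), Ccl4 (1.58), Ccl6 (1.58), Ccl9 (1.5), Bhlhe40 (1.98), Nfil3 (1.23), Tal1 (0.97), Zfp36 (1.77) and Sytl3 (1.23). The genes with a larger difference under TSLP or an opposite sign under IL-3 were Nlrc3 (1.56), Zranb3 (1.63), Pld4 (-2.21), Clec4e (1.86), F13a1 (1.28) and Tbxas1 (-1.42). Groups of 3 libraries are too small for a test of single outlying libraries.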

How the results depend on the processing

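Under each of 23 alternatives, 729 genes stayed called for immature and 532 for mature cells. Of 160 genes named and tested, Lcn2, Prtn3 and Myc not among them, 136 kept direction and side of the threshold under each alternative. Many of the 160 were chosen as still called without TSLP mature 1, so part of that stability was fixed in advance. Of the other 24, 2 turned. These 2 were S100a9 (0.65 without TSLP mature 1, 0.65 with the same genes tested and 0.61 in the TSLP libraries alone) and S100a8 (0.83, 0.83 and 0.80). Over the named genes, fits without 1 library gave log2 values from -5.69 (Wdr95, without TSLP immature 2) to 10.21 (LOC102636203, without TSLP immature 3, at 0 counts in mature cells, so that its fitted value depends on the prior count and is no bound). The calls higher in immature and in mature cells were 1416 and 1282 with DESeq2, 1637 and 1249 without a filter, 1364 and 984 at a minimum of 10 CPM, and 1508 and 1207 without ribosomal RNA. Leaving out 1 library gave 1774 (TSLP immature 1) to 3456 (TSLP mature 1) calls, 1047 to 2095 higher in immature and 727 (TSLP immature 1) to 1361 higher in mature cells, 763 of the last without TSLP immature 2. The interaction count ran from 240 (without IL-3 mature 2) to 723 (without TSLP mature 1), with 267 without IL-3 immature 2, 284 without IL-3 mature 3, 282 without TSLP immature 1 and 273 without TSLP immature 2. With the same genes tested, leaving out TSLP mature 1, an alternative chosen after seeing the data, gave 2082 calls higher in immature cells and 720 interaction calls. The cause was not tested.

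With the replicate number as a block, 1623 genes were higher in immature and 1467 in mature cells. The deviations of same-numbered TSLP libraries correlated at 0.16, 0.06 and 0.37. TSLP immature 1 and TSLP immature 3 correlated best with the mature library of their own number, and TSLP immature 2 with TSLP mature 1 (0.14). Whether same-numbered libraries came from the same culture is not stated, and these values do not settle it. Depth limits genes of few counts, since 3 counts over a group were taken as the floor.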
